A study of Homo sapiens with 6 samples.

Results

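The genes described here encode AMPK, the AMP-activated protein kinase, and the kinases that switch it on. They are 7 subunit genes (PRKAA1, PRKAA2, PRKAB1, PRKAB2, PRKAG1, PRKAG2 and PRKAG3) and 3 upstream kinase genes (STK11, CAMKK1 and CAMKK2). Members were chosen by gene symbol, each gene's probe set was selected on the highest mean signal over the 6 arrays, and all 10 were found among 18417 measured genes. Each had a single probe set, so that step removed nothing. The family was chosen with its colony and parent values already known, PRKAA2 being among the deepest falls of the series, so the PRKAA2 difference is given as a description with no test.

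The samples came from WM164, a melanoma cell line whose labels give a mutant BRAF kinase. The 3 samples titled IDTC colony had been kept for 60 days in 500 nM PLX4032, the inhibitor of mutant BRAF also called vemurafenib, and are described in the labels as treated and resistant. The 3 parent samples carry the treatment label control and the description untreated, while the series title says that they received DMSO. Both groups were grown in RPMI medium with fetal calf serum, and they share 1 line, so the values speak of that line alone. The design text of the series states independent samples and gives no pairing. The sources do not say whether a colony was 1 clone, or whether independent means separate cultures. A p-value here therefore measures the spread among these samples only, and that spread may be technical.

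AMPK is a heterotrimer that senses a falling energy charge. A catalytic α subunit, which carries the kinase domain, is held by a scaffolding β subunit to a γ subunit that binds AMP, ADP and ATP. LKB1, the product of STK11, phosphorylates the activation loop of α when energy is low, and CaMKK2 does so when calcium rises. Active AMPK turns down fatty acid, sterol and protein synthesis and promotes autophagy and fuel oxidation. In BRAF-mutant melanoma cells, signalling through ERK has been described to phosphorylate LKB1 and weaken its hold on AMPK. The arrays measured RNA, and neither protein nor phosphorylation was part of these data.

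Each sample had an Affymetrix whole-transcript array to itself, read in 1 colour, and values are the deposited log2 signals of probe sets. Replicates correlated at 0.997 to 0.998 across genes, and a colony array with a parent array at 0.967 to 0.969. Array medians over all probe sets lay between 6.25 and 6.34. Probe sets differ in brightness, so levels were compared only within a gene. Of 7 measured melanocyte lineage markers, 6 averaged between 9.50 (MLANA) and 12.86 (PMEL) in colonies, and between 10.19 (TYR) and 12.52 (PMEL) in parent cells. Of the 7, 3 rose and 2 fell, and MLANA fell by 1.45 on the log2 scale (limma adjusted p = 4.1e-07). TYRP1 alone was dim, at 4.45 in colonies and 4.69 in parent cells. Of 7 fibroblast markers none rose and 1 fell, with means of 3.69 to 7.76 in colonies and 3.59 to 8.11 in parent cells. Of 6 leukocyte markers none rose and 3 fell (LYZ, CD68 and FCER1G), and their part in the other results was not tested. The leukocyte markers had means of 3.71 to 9.78 in colonies and 3.67 to 11.05 in parent cells, with PTPRC, the pan-leukocyte surface marker, at 3.71 in colonies and 3.67 in parent cells. Among 15 genes restricted to other organs, group means ranged from 3.32 to 7.42 in colonies and from 3.36 to 7.67 in parent cells (2 rose and none fell).

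PRKAA2 RNA was far lower in colonies, and PRKAB2 RNA was about double, whereas the γ genes and the main upstream kinases differed little. PRKAA2 was 16.9-fold lower in colonies than in parent cells. Of the 9 other members, 2 rose (PRKAB2 and CAMKK1), 1 fell (PRKAB1) and 6 did not pass the test (limma, adjusted p under 0.05 over all genes). Over all 18417 genes 43.8% passed, 20.9% as higher and 22.9% as lower, beside 3 calls among these 9 genes. With only genes above the median expression tested, 3093 of 9208 genes passed as higher and 3642 as lower, beside 3 calls among 7 members. Those 3 were PRKAB2, PRKAB1 and PRKAA1, and CAMKK1 was too dim to be tested there. With the median of the 50 nearest expressed genes in the gene order (the neighbourhood median) subtracted from each difference, 6 of the 9 passed, against 54.0% of all genes. The median difference of the 9 genes was 0.02 on the log2 scale, against -0.004 over all genes, and their median absolute difference was 0.09, against 0.15 over all genes. Colony and parent values did not overlap for 5 of the 9, against 50.8% of all genes. In bulk RNA, fewer cells that express a gene and less RNA per cell cannot be told apart.

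**Figure D1:**
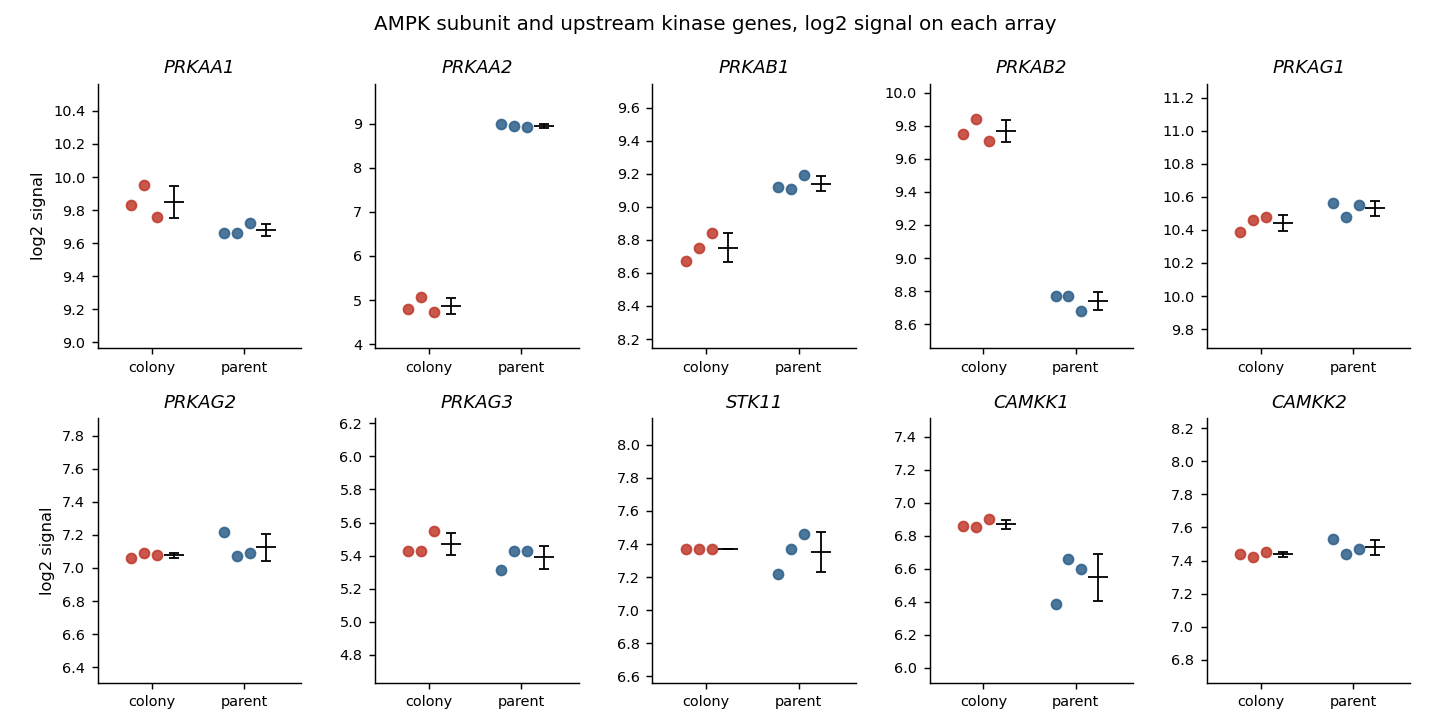
Log2 signal of the 10 genes on each array, with 3 IDTC colony arrays (red) left of 3 parent arrays (blue) in every panel. Black marks give the mean and SD of a group, and axes differ between panels, with a wider span for PRKAA2. PRKAA2 averages 4.87 in colonies and 8.95 in parent cells, and PRKAB2 9.77 in colonies and 8.74 in parent cells.

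The α subunits carry the kinase activity, and a cell can use either of a pair of genes for it. PRKAA2 (probe set 7901720) encodes α2, the form known for its abundance in skeletal and heart muscle. Its log2 signal was 4.79, 5.08 and 4.73 in colonies 1 to 3, against 8.99, 8.94 and 8.92 in parent samples 1 to 3. Every colony lay more than 3 log2 units below every parent sample. The group means were 4.87 ± 0.18 in colonies and 8.95 ± 0.04 in parent cells (SD, n = 3 each), a difference of -4.08 ± 0.09 (SE). At 4.87 the colony mean was dimmer than the median of every array and inside the range of the genes restricted to other organs. Whether it stood above background was not tested, so the fold is that of the deposited values.

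PRKAA1 (probe set 8111796) encodes α1, the form found in most cell types. It read 9.83, 9.95 and 9.76 in colonies and 9.66, 9.66 and 9.72 in parent cells. The groups did not overlap, but the gap between the lowest colony and the highest parent sample was small beside the spread of the colonies. Means were 9.85 ± 0.10 in colonies and 9.68 ± 0.04 in parent cells (SD, n = 3 each). The difference of 0.17 ± 0.06 (SE, 95% interval 0.03 to 0.31) missed the threshold in limma (adjusted p = 0.053), and the setting decided the call. PRKAA1 passed after quantile normalization (0.26, adjusted p = 0.0106), with only genes above the median expression tested (adjusted p = 0.0222), with trend and robust settings (adjusted p = 0.0244), with the neighbourhood median subtracted (adjusted p = 0.0213) and without colony replicate 3 (0.21, adjusted p = 0.0304). Over all alternatives its adjusted p ranged from 0.0106 to 0.154. In linear terms the PRKAA1 signal was 1.12-fold that of parent cells, beside the 16.9-fold lower signal of PRKAA2.

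The 250 bases before the RefSeq start of each α and β gene are printed here because each pair of paralogues holds genes with unlike RNA differences. They are from the GRCh38.p14 build, 5′ to 3′ on the strand of the gene, and capitals mark GC boxes, the letters GGGCGG on either strand, where SP1-type factors are known to bind. PRKAA2 lies at chr1:56645064-56645313 on the plus strand, PRKAA1 at chr5:40798178-40798427 on the minus strand, PRKAB2 at chr1:147172471-147172720 on the minus strand and PRKAB1 at chr12:119667883-119668132 on the plus strand.
PRKAA2: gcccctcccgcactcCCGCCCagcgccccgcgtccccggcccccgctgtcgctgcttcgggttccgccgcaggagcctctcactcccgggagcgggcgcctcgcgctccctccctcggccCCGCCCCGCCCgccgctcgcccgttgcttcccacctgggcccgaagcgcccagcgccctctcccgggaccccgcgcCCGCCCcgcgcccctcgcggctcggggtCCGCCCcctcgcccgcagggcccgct
PRKAA1: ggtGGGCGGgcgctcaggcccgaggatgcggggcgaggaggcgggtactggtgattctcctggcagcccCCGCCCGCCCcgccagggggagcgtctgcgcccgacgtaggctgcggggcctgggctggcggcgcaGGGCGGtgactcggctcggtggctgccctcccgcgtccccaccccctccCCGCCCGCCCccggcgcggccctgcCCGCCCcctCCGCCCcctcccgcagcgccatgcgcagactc
PRKAB2: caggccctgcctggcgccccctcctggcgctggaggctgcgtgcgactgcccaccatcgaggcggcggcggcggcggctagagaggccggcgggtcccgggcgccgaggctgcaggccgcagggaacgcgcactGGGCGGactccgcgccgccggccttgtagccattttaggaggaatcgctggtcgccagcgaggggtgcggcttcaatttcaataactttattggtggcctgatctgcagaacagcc
PRKAB1: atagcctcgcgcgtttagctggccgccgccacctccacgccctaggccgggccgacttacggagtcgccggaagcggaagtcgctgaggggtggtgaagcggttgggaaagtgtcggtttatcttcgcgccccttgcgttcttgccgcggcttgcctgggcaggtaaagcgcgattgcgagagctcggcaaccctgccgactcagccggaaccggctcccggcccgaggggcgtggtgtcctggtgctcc

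The PRKAA2 window is rich in CG dinucleotides, with 39 of them and 5 GC boxes, and the PRKAA1 window has 31 and 8 GC boxes. PRKAB2 has 27 CG dinucleotides and 1 GC box, and PRKAB1 30 and 0 GC boxes. The median over 35116 RefSeq windows of this length was 11 CG dinucleotides, and 42.6% of them held a GC box. Matches that overlap, as on PRKAA1, were each counted. None of these 4 windows held the E-box CACGTG (in 6.34% of all windows, both strands), the E-box CATGTG that MITF can bind (9.42%), the AP-1 motif TGANTCA (6.57%) or the CRE core TGACGT (7.10%). These are matches of letters in a short window, and binding was not measured.

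The β subunits link α to γ and bind glycogen, and their genes changed in opposite directions. PRKAB2 (probe set 7919305), which encodes β2, the form prominent in muscle, read 9.75, 9.84 and 9.71 in colonies and 8.77, 8.77 and 8.68 in parent cells. Each colony was close to 1 log2 unit above each parent sample. Means were 9.77 ± 0.06 in colonies and 8.74 ± 0.05 in parent cells (SD, n = 3 each), so PRKAB2 rose 2.03-fold (log2 difference 1.02 ± 0.05 SE, limma adjusted p = 4.8e-06). Of all genes, 453 were higher in colonies by at least as much, PRKAB2 itself included.

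PRKAB1 (probe set 7959123), which encodes the widely expressed β1, read 8.67, 8.75 and 8.84 in colonies and 9.12, 9.11 and 9.19 in parent cells. No colony reached the lowest parent sample. Means were 8.75 ± 0.09 in colonies and 9.14 ± 0.05 in parent cells (SD, n = 3 each), and PRKAB1 fell by 0.39 on the log2 scale (SE 0.06, limma adjusted p = 0.00099), which is 1.31-fold.

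The γ subunits carry the nucleotide-binding sites that make the enzyme an energy sensor, and none of their 3 genes passed the test. PRKAG1 (probe set 7962935), the γ1 gene used by most cells, read 10.39, 10.46 and 10.48 in colonies and 10.56, 10.48 and 10.55 in parent cells. Its groups met at 10.48, parted only beyond the second decimal, and its difference was -0.09 ± 0.05 (SE, 95% interval -0.20 to 0.02, limma adjusted p = 0.19). PRKAG2 (probe set 8143961), whose mutations are known to cause a glycogen storage disease of the heart, read 7.06, 7.09 and 7.08 in colonies and 7.22, 7.07 and 7.09 in parent cells. Apart from parent sample 1 all its values lay close together, and its difference was -0.05 ± 0.05 (95% interval -0.17 to 0.07, limma adjusted p = 0.52).

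PRKAG3 (probe set 8058997) encodes γ3, a form largely restricted to skeletal muscle. It read 5.43, 5.43 and 5.55 in colonies and 5.31, 5.43 and 5.43 in parent cells. The groups overlapped, both were dimmer than the median of every array, and the difference was 0.08 ± 0.06 (95% interval -0.06 to 0.22, limma adjusted p = 0.35). The neighbourhood median was -0.26 around PRKAG2 and -0.32 around PRKAG3. With it subtracted, both genes passed as higher. PRKAG2 stood at 0.21 (limma adjusted p = 0.0124, range over alternatives 0.0124 to 0.965) and PRKAG3 at 0.40 (limma adjusted p = 0.000922, range 0.000922 to 0.68). Before subtraction they differed by -0.05 and 0.08, so both calls come from the subtracted medians. Those were taken as fixed values, and the p-values leave out their uncertainty. The 6 PRKAG3 arrays held only 4 distinct values, since repeated values are common in the deposited table, where 30.4% of genes have at least 1 tie among the arrays.

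Among the upstream kinases, only CAMKK1 passed the test. STK11 (probe set 8024204), the gene of LKB1, a tumour suppressor and the main activator of AMPK, read 7.37 on each colony array and 7.22, 7.37 and 7.46 in parent cells. The colony value was identical on all 3 arrays and the same as that of parent sample 2, so its SD of 0 comes from the table as deposited and not from a measured precision. The difference was 0.02 ± 0.07 (SE, 95% interval -0.14 to 0.18, limma adjusted p = 0.86), and its sign turned when arrays were shifted to a common median (-0.00), after quantile normalization (-0.01) and without parent replicate 1 (-0.05).

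CAMKK1 (probe set 8011480) encodes CaMKKα, a calcium-dependent kinase best known for acting on CaMKI and CaMKIV. It read 6.86, 6.85 and 6.90 in colonies and 6.39, 6.66 and 6.60 in parent cells. All colonies lay above all parent samples, and parent sample 1 was the lowest. CAMKK1 rose by 0.32 ± 0.07 on the log2 scale (SE, limma adjusted p = 0.0093), or 1.25-fold. CAMKK2 (probe set 7967127), the gene of CaMKKβ, which is the calcium-dependent activator of AMPK, read 7.44, 7.42 and 7.45 in colonies and 7.53, 7.44 and 7.47 in parent cells. The groups overlapped and the difference was -0.04 ± 0.04 (95% interval -0.15 to 0.06, limma adjusted p = 0.52).

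For the 6 members that did not pass, the 95% intervals of this fit ran at most from -0.20 to 0.31 on the log2 scale, which does not show that levels were equal. Neighbourhood subtraction put PRKAG3 outside that span, at 0.40.

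**Figure D2:**
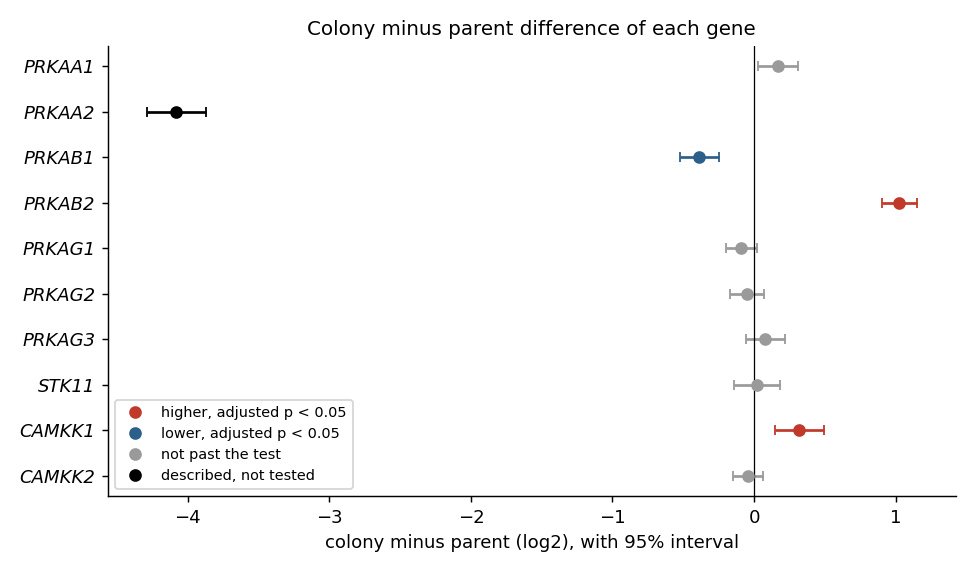
Colony minus parent difference of each gene on the log2 scale, with its 95% interval from limma. Red and blue points passed the test as higher and lower, grey points did not pass, and PRKAA2 (black) was not tested. PRKAB2 stands at 1.02, PRKAB1 at -0.39 and PRKAA2 at -4.08.

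Genes with the pattern most like PRKAA2 were sought by the Euclidean distance between the 6 log2 values after each gene's own mean was subtracted, as a description over 6 arrays of 2 groups. The nearest was TMEM163, a zinc transporter gene, at a distance of 0.24. It averaged 5.47 in colonies and 9.36 in parent cells. CACNA2D1, a calcium channel subunit gene, followed at 0.31 and LPXN, the gene of leupaxin, at 0.32. GMPR, which encodes a guanosine monophosphate reductase, stood at 0.57 and PLA2G7, the gene of a secreted phospholipase that acts on platelet-activating factor, at 0.60. These 5 genes were 13.0-fold to 23.3-fold lower in colonies, and the likeness rests on that step between groups.

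The place of PRKAA2 in the genome was read from the gene order of GRCh38.p14. The measured gene next to it on the side of lower coordinates is PLPP3, which encodes a membrane phosphatase of lysophosphatidic acid and related lipids and was also lower in colonies. PLPP3 read 9.72, 9.71 and 9.80 in colonies and 11.88, 11.89 and 12.01 in parent cells. It fell by 2.19 on the log2 scale (SE 0.05, limma adjusted p = 2e-07). Beyond it, USP24, a deubiquitinase gene, fell by 0.23 (SE 0.05, limma adjusted p = 0.006), and BSND, a chloride channel subunit gene, showed -0.06 (adjusted p = 0.40 by limma). On the other side FYB2 (-0.05), C8A (-0.04) and C8B (0.02), the last 2 encoding complement components, did not pass. JUN, the AP-1 transcription factor gene 7 places away and named here after its value was seen, rose by 2.07 (SE 0.05, limma adjusted p = 2e-07). JUN read 8.84 on all 3 colony arrays, so its colony SD of 0 is not a measured precision. Of the 50 measured genes flanking PRKAA2, 25 on each side, 11 rose and 13 fell, near the background share, and their median was -0.03. Of the 6 adjacent genes, PLPP3 and USP24 fell and the other 4 did not pass.

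**Figure D3:**
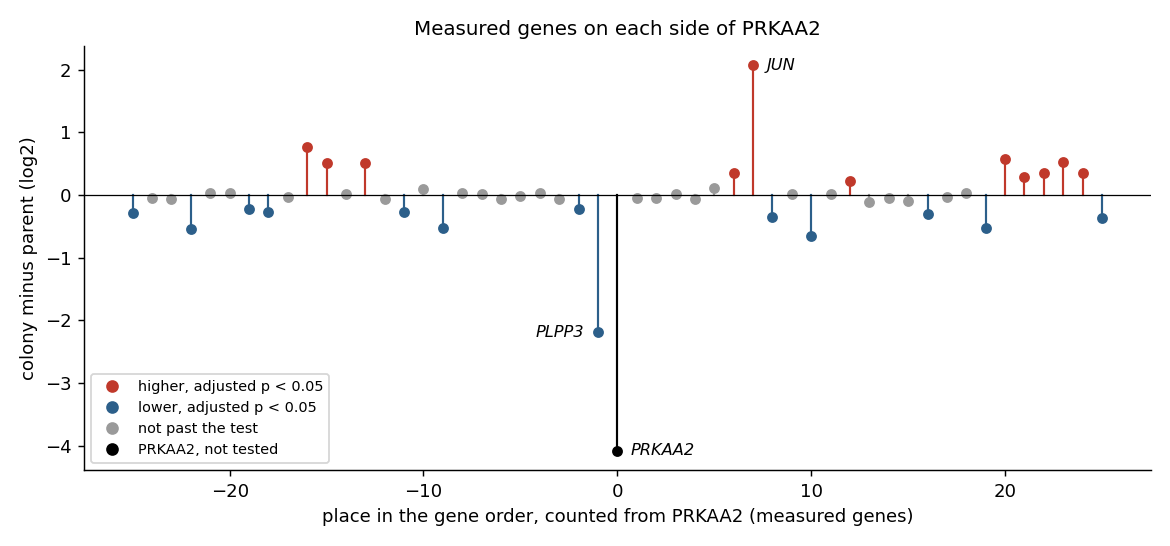
Colony minus parent difference (log2) of the 50 measured genes flanking PRKAA2, by their place in the gene order, with PRKAA2 at 0. Red and blue mark genes that passed the test as higher and lower, and grey those that did not. PRKAA2 (-4.08) and PLPP3 (-2.19) stand side by side, and the flanking median is -0.03.

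The other genes of the pathway were read as 8 lists. Counts stand beside the 43.8% of all genes that passed, and medians beside the median of -0.004 over all genes. With only genes above the median expression tested, 3093 of 9208 genes were higher and 3642 lower, a larger share. Counts in lists of brighter genes are to be read beside that share. LKB1 works in a complex with a STRAD pseudokinase and an MO25 scaffold, and all 5 measured genes of the list of its partners and TAK1 passed, 2 higher and 3 lower (median -0.18). The paralogues again went opposite ways. STRADA rose by 0.87 ± 0.05 (8.32 ± 0.04 in colonies, 7.45 ± 0.04 in parent cells, limma adjusted p = 5.3e-06), and STRADB fell by 0.49 on the log2 scale (SE 0.05, limma adjusted p = 1.1e-04), with -0.46 on its other probe set. Of the MO25 genes, CAB39L rose by 0.36 ± 0.08 and CAB39 fell by 0.42 (SE 0.05). The neighbourhood median was 0.54 for STRADA and 0.28 for CAB39L. With it subtracted STRADA stood at 0.33, STRADB at -0.28 and CAB39 at -0.25, all still past the test, while CAB39L did not pass (0.08, adjusted p = 0.434, range over alternatives 0.00499 to 0.434).

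The AMPK-related kinases are further substrates of LKB1 that share its activation mechanism. Of 11 measured, 3 rose, 4 fell and 4 did not pass (median 0.04). SIK2, a kinase of CREB coactivators, rose by 0.78 ± 0.08 and SNRK by 0.60 ± 0.05. BRSK1 and BRSK2, the kinases known for neuronal polarity, fell by 0.89 and by 0.37 (SE 0.06 and 0.05). Adjusted p-values of these 4 were between 2.0e-05 and 5.7e-04 in limma.

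Regulators of AMPK included 4 of 12 that rose, 2 that fell and 6 that did not pass (median 0.08). The sestrin genes SESN2, the gene of a leucine sensor, and SESN3 had the largest rises. SESN2 was at 8.13 ± 0.02 in colonies and 7.14 ± 0.17 in parent cells (difference 0.99 ± 0.08, limma adjusted p = 4.5e-05), and SESN3 at 9.34 ± 0.02 in colonies and 8.36 ± 0.01 in parent cells (0.97 ± 0.04, limma adjusted p = 1.8e-06). SESN1, the other sestrin gene, did not pass (0.00 ± 0.08, limma adjusted p = 0.99). Sestrins are stress-induced proteins that restrain mTORC1 and have been linked to AMPK. PPP2CA, a catalytic subunit of the phosphatase PP2A, fell by 0.46 (SE 0.09) beside a neighbourhood median of -0.29, and FNIP2, a partner of folliculin, fell by 0.24 (SE 0.05) beside one of -0.28. With that median subtracted neither passed (PPP2CA -0.17, adjusted p = 0.167, and FNIP2 0.03, adjusted p = 0.564, with ranges over alternatives of 0.00131 to 0.167 and 0.00106 to 0.564). FLCN, the gene of folliculin itself, rose by 0.37 ± 0.08 (limma adjusted p = 0.0051). FNIP1 rose by 0.55 ± 0.06 (limma adjusted p = 0.00026), both being named here after their values were seen.

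Metabolic substrates, proteins that AMPK phosphorylates in lipid, glucose and glycogen metabolism, rose in 4 of 11 measured genes, fell in 2 and did not pass in 5 (median 0.05). With the neighbourhood median subtracted 4 were lower. PFKFB2 and PFKFB3 encode isoforms of the enzyme that makes fructose 2,6-bisphosphate, an activator of glycolysis, and they moved apart. PFKFB2 read 7.96, 7.99 and 8.05 in colonies and 6.96, 6.77 and 6.91 in parent cells, and rose by 1.12 ± 0.06 (limma adjusted p = 5.7e-06). PFKFB3 fell by 0.67 (SE 0.04, limma adjusted p = 1.4e-05). ACACB, the acetyl-CoA carboxylase that controls fatty acid entry into mitochondria, rose by 0.90 ± 0.08, and GYS1, the glycogen synthase of most tissues, fell by 0.76 (SE 0.06). ACACB read 7.23 on all 3 colony arrays, so its colony SD of 0 is not a measured precision.

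Among substrates in growth, autophagy and transcription, 7 of 13 rose, 4 fell and 2 did not pass (median 0.25). HDAC5, a class IIa histone deacetylase, rose by 0.89 ± 0.04 and PPARGC1A, the coactivator PGC-1α that drives mitochondrial biogenesis, by 0.65 ± 0.06. HDAC5 read 8.14 on all 3 colony arrays, so its colony SD of 0 is not a measured precision. ATG9A, an autophagy membrane protein gene, fell by 0.40 (SE 0.04), and HDAC4, a paralogue of HDAC5, by 0.31 (SE 0.05). HDAC5 lay beside a neighbourhood median of 0.43 and stood at 0.46 with it subtracted, still past the test. ATG9A lay beside a neighbourhood median of -0.32 and did not pass with it subtracted (-0.08, adjusted p = 0.117, range over alternatives 7.17e-06 to 0.117). The count of lower genes was 2 with the replicate number as a term and 2 without colony replicate 1.

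mTORC1, the growth kinase complex that AMPK restrains through TSC2 and RPTOR, had 8 of 14 component and effector genes higher, 4 lower and 2 not past the test (median 0.25). TSC2 and RPTOR also stand in the preceding list. RRAGB, one of the Rag GTPases that bring mTORC1 to lysosomes, rose by 0.64 ± 0.08 and TSC2 by 0.56 ± 0.06. RHEB, the GTPase that activates mTORC1 and is switched off by TSC2, fell by 0.72 (SE 0.06, with -0.59 on its other probe set), and AKT1S1, the gene of the mTORC1 inhibitor PRAS40, by 0.66 (SE 0.04). Adjusted p-values of these 4 were between 1.5e-05 and 3.4e-04 in limma.

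Only 6 of 11 genes of the calmodulin kinase list were measured with a single symbol, and the calmodulin genes themselves were not analysed here. Of the 6, 1 rose and 2 fell (median 0.07), and 3 were higher with the neighbourhood median subtracted, when CAMK2G stood at 0.28. CAMK4, a substrate of the CaMKK enzymes, fell by 0.97 (SE 0.09), with 7.84 ± 0.10 in colonies and 8.80 ± 0.14 in parent cells. CAMK2D fell as well, with 8.26 ± 0.12 in colonies and 9.26 ± 0.13 in parent cells, and CAMK2G rose by 0.48 ± 0.05. Adjusted p-values of these 3 were between 5.6e-05 and 2.0e-04 in limma.

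Enzymes of adenine nucleotides held the largest differences of the 8 lists. Their effect on the AMP that AMPK senses was not measured. Of 12 measured, 2 rose, 6 fell and 4 did not pass (median -0.16). AK5, an adenylate kinase known from brain, read 7.56, 7.32 and 7.30 in colonies and 4.93, 4.75 and 4.32 in parent cells, and rose by 2.73 ± 0.15 (limma adjusted p = 6.8e-06). Its parent mean of 4.67 was dimmer than the median of every array, and its standing above background was not tested. AK4, the mitochondrial adenylate kinase, fell by 1.49 (SE 0.05), with 9.35 ± 0.07 in colonies and 10.84 ± 0.04 in parent cells on the brighter of its 2 probe sets (7962183). The dimmer one (7902038) averaged 7.96 in colonies and 8.38 in parent cells, a difference of -0.42, and the mean of both gave -0.95, so the size of the AK4 difference depends on the probe set. NT5E, the surface enzyme CD73 that makes adenosine from AMP, read 6.27, 6.20 and 6.32 in colonies and 9.08, 8.93 and 8.95 in parent cells, and fell by 2.72 (SE 0.06, limma adjusted p = 1.3e-07). NT5C2, a cytosolic nucleotidase gene, rose by 0.54 ± 0.05, and by 0.30 with the neighbourhood median subtracted.

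**Figure D4:**
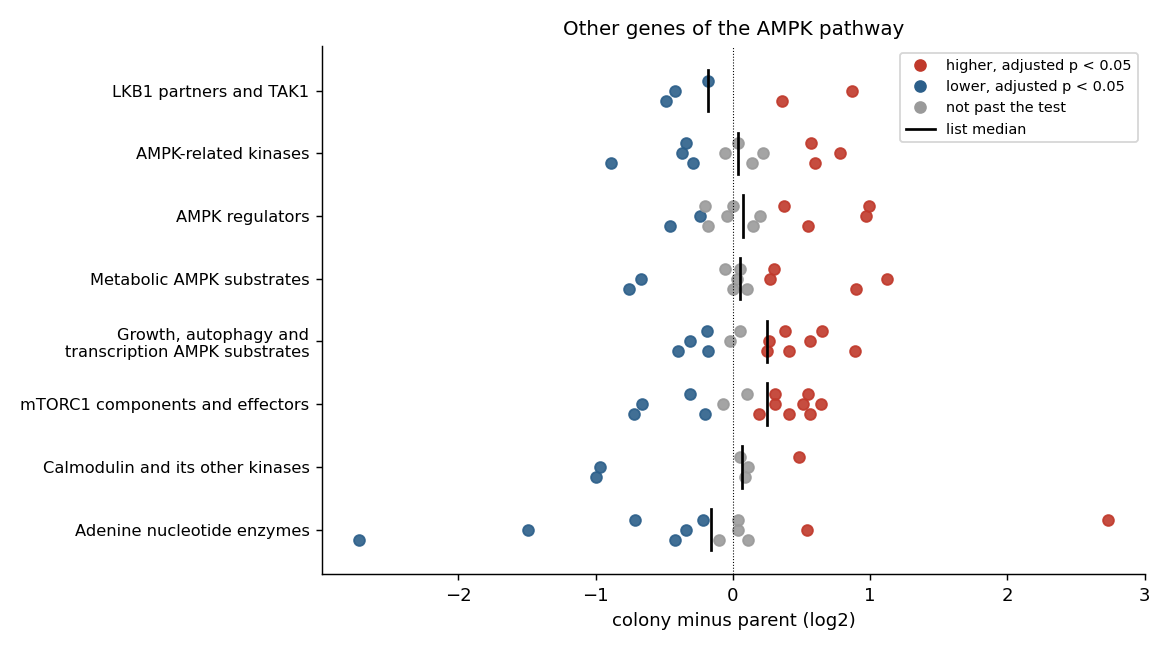
Colony minus parent difference (log2) of each measured gene in 8 lists of the AMPK pathway, 1 point per gene, with the list median as a black bar. Red and blue points passed the test as higher and lower, and grey points did not. Medians run from -0.18 to 0.25, and AK5 (2.73) and NT5E (-2.72) lie farthest out.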

How the data were processed

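RNA of 3 IDTC colony and 3 parent samples was measured on Affymetrix arrays. The deposited values are log2 signals of 33297 probe sets, as their range shows. Per the submitters' processing notes the authors used Affymetrix Expression Console, whose version is not given in the sources used here, nor is the background correction or normalization. Arrays have no read depth, and their number limits the precision.

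The platform annotation gave 1 symbol for 19460 probe sets, several for 1754 and none for 12083. Probe sets with 1 symbol were kept, and the one with the highest mean stood for a gene, which gave 18417 genes. Dim genes were not removed. The groups were set against each other with limma (lmFit, then eBayes, 2-sided, with no term but group). P-values were adjusted over all genes by Benjamini-Hochberg, with a threshold of 0.05. The procedure was also run on simulated normal values with few changed genes. These data differ from that setting, so the run does not test the calls made here. Differences are colony minus parent.

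The members, the gene lists, the alternatives and the naming rule were chosen with earlier results of these data known. The rule took all 10 members, up to 2 members per pathway list with the largest difference past the test in each direction, the 5 genes nearest to PRKAA2 in pattern and the 3 measured genes on each side of it. The design text gives no pairing, so no block was used, and replicate numbers in the titles gave no sign of pairing.

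Promoter windows come from RefSeq (GRCh38.p14), in which all 10 members matched. The build of the array annotation is not given, so the gene table served only for names and gene order. Neighbourhood medians are over the 50 nearest genes above the median expression. Each was subtracted as a fixed value, so p-values in that setting leave out its uncertainty. R 4.3.3, limma 3.58.1, Python 3.11.15, numpy 2.4.6, pandas 2.3.3 and matplotlib 3.10.9 were used.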

Additional observations from a re-analysis of the deposited data

How the results depend on the processing

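Every alternative kept PRKAA2 within the spread of its replicates (-4.10 to -4.05, and -4.19 to -4.02 with an array left out), except that the filter on dim genes left it untested, as it did CAMKK1 and PRKAG3. PRKAB2, PRKAB1 and CAMKK1 kept their calls wherever they were tested, with adjusted p of at most 0.000109, 0.00652 and 0.0406. Members called numbered 6 of 9 with the neighbourhood median subtracted (a count added after seeing the data, with 5284 genes higher and 4658 lower) and 3 or 4 in the other settings, and genes called 3384 to 3860 higher and 3733 to 4494 lower with an array left out.

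With the neighbourhood median subtracted PRKAG2 (0.21, adjusted p = 0.0124), PRKAG1 (0.01) and CAMKK2 (0.07) changed sign, as did FNIP2 (0.03), and PRKAG3 passed (0.40, adjusted p = 0.000922). Their adjusted p over the alternatives ranged from 0.0124 to 0.965 for PRKAG2 and from 0.000922 to 0.68 for PRKAG3. STK11 changed sign with arrays shifted to a common median (-0.00), after quantile normalization (-0.01) and ranged from -0.05 to 0.08 with an array left out, negative without parent replicate 1. Counts in the pathway lists moved with the neighbourhood median subtracted for lower metabolic substrates (4 against 2), higher calmodulin kinases (3 against 1) and higher LKB1 partners (1 against 2). With dim genes removed, 1 LKB1 partner and 1 adenine nucleotide enzyme were higher, CAB39L and AK5 being untested there. The subtraction shifts a gene by the median of its neighbours whether or not the gene shares it. PRKAG3, at 0.08 before, moved to 0.40 in this way. The sign changes of PRKAG2, PRKAG1, CAMKK2 and FNIP2 also came from the subtraction, their neighbourhood medians being -0.26, -0.10, -0.11 and -0.28. The cause of changes in the other settings was not tested.

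With the replicate number as a block, PRKAA2 stayed at -4.08, 3 members were called, and 3633 genes were higher and 3931 lower. Same-numbered samples had deviations from their group means that correlated at -0.09, -0.06 and -0.01. That gives no sign of pairing by number, but 3 arrays per group cannot exclude shared handling. No detection call was used, which limits what the low signals show.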
